A study of Mus musculus with 2 samples.

Results

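Immediate early genes, together with the subunits of the transcription factor AP-1 and the feedback regulators induced with them, were examined in single-cell RNA-seq libraries of adipose tissue macrophages (ATMs). The 32 genes were taken as a given list of symbols, and all 32 were found among the 31053 genes of the count matrices, each with UMIs (unique molecular identifiers, one per captured transcript) in both libraries. They comprise 8 AP-1 subunits and partners (Fos, Fosb, Fosl2, Jun, Junb, Jund, Atf3, Maff), 3 EGR factors (Egr1, Egr2, Egr3) and 4 immediate early response genes (Ier2, Ier3, Ier5, Csrnp1). The others are 4 mRNA decay and antiproliferative genes (Zfp36, Zfp36l1, Btg1, Btg2), 4 MAP kinase phosphatases (Dusp1, Dusp2, Dusp5, Dusp6), 3 feedback genes of NF-kB (Nfkbia, Nfkbiz, Tnfaip3) and 6 stress, survival and signalling genes (Rhob, Gadd45b, Mcl1, Socs3, Ppp1r15a, Pim1).

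Both libraries came from the epididymal fat of young adult male mice of the strain C57/BL6 (C57BL/6JOlaHsd in the study's methods), with no genetic modification named in the labels. One held ATMs of mice kept on control diet (CD), the other ATMs of mice given a high-fat diet (HFD) overnight, and each pooled the cells of 3 mice into 1 library. ATMs were released from the tissue by enzymatic digestion, which the study's methods describe as a warm collagenase digest, and sorted as CD45+Lin-Ly6Clow/-F4/80+ cells. With 1 library per diet, a difference between diets cannot be told apart from a difference between the libraries' handling, no test between the diets was possible, and every interval given covers counting error only.

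Immediate early genes are transcribed within minutes of a stimulus, without new protein synthesis. MAP kinases activate factors already bound at their promoters, such as SRF with its ELK partners and CREB, and NF-kB also drives some of these genes. FOS and JUN proteins pair as AP-1 and switch on later genes, whereas the products of DUSP genes dephosphorylate the MAP kinases, ZFP36 proteins destroy the mRNAs of cytokines and of immediate early genes, and IkB-alpha (from Nfkbia) and A20 (from Tnfaip3) shut down NF-kB. In macrophages the group answers bacterial products, cytokines, growth factors and mechanical or thermal stress. Enzymatic release of cells from tissue is itself known to induce many of its members. Whether the levels below were present in the tissue or arose during digestion and sorting was not tested: both libraries went through it and no undigested sample was analysed here.

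Promoter sequences from RefSeq (GRCm38.p6) were matched by symbol for 28 of the 32 members, not for Egr1, Egr3, Ier2 and Nfkbiz, and the 250 bases before each start were searched on both strands. The full cAMP response element TGACGTCA, bound by CREB, was present for 4 of the 28 members (14.3%; Btg2, Dusp1, Maff and Ppp1r15a) and for 1.77% of all 27025 genes with a window. The CArG box bound by SRF was present for 3 members (10.7%; Egr2, Zfp36 and Dusp5) against 1.62% of all genes, and the NF-kB consensus for 8 (28.6%) against 8.23%. The shorter CREB element TGACG, which also lies within the full one, occurred for 13 members (46.4%) against 19.8% of all genes, and the AP-1 site TGANTCA for 3 (10.7%) against 7.82%. The 5 members with several annotated starts had more than 1 window and so more chances of a match. The windows of Zfp36, Dusp5 and Fosl2 lay wholly within annotated exons, and bases further from each start were not searched. Shown are the promoters of the most abundant member, of the phosphatase with a full response element, of an NF-kB feedback gene and of the member that was lowest in Lyz1 cells relative to Lyve1+ cells in CD, with matches to these motifs in capitals.

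Fos: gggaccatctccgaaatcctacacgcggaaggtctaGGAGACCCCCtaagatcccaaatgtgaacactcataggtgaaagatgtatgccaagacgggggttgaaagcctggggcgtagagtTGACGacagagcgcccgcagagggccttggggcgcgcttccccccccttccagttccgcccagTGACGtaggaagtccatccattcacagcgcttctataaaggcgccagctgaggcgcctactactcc

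Dusp1: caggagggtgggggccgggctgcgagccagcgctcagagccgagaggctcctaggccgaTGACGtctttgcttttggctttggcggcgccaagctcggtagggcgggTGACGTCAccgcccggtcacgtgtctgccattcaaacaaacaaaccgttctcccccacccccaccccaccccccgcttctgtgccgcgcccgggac

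Nfkbia: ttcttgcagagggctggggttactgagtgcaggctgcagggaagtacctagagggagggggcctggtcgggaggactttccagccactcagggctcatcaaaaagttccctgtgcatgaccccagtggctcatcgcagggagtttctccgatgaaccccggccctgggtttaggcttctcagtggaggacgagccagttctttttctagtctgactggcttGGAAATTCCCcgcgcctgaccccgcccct

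Zfp36l1: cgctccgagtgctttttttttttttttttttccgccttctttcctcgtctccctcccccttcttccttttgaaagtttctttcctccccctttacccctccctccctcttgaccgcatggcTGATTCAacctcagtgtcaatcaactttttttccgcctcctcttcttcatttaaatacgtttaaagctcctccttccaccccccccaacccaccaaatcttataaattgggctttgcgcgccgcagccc

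The Fos window is chr12:85473640-85473889 on the plus strand. Its capitals mark the shorter CREB element from 129 to 125 and from 66 to 62 bases before the start, and a match to the NF-kB consensus from 214 to 205. The Dusp1 stretch, chr17:26508520-26508722 on the minus strand, was ended where an annotated exon begins, and its capitals mark a shorter element and the full element from 143 to 136 bases before the start. The Nfkbia window is chr12:55492648-55492897 on the minus strand, with an NF-kB match from 29 to 20 bases before the start. The Zfp36l1 window is chr12:80113014-80113263 on the minus strand, with the AP-1 letters from 129 to 123 bases before the start. These letters describe the sequences, and no binding was measured here.

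Cells with 200 to 3500 detected genes and at most 10% mitochondrial UMIs were kept, which left 2364 cells and 12284010 UMIs in CD and 2021 cells and 8086475 UMIs in HFD. The HFD library was shallower per cell, with a median of 2792 UMIs against 4491 in CD, and 40.8% of its cells had under 1000 genes against 14.4% in CD. At least 2 UMIs of the macrophage markers (Adgre1, Csf1r, Cd68, Fcgr1, Mertk, C1qa, Lyz2, Itgam) were found in 99.9% of CD and 99.8% of HFD cells. Among defining markers of other leukocytes, Cd3e, Ncr1, Ms4a1, Pax5, Ly6g, Cpa3, Mcpt4 and Epx had 0 UMIs in both libraries. T and NK cell, B cell, and mast cell and eosinophil markers summed to 2.28, 5.05 and 2.36 CPM (UMIs scaled to a total of 1000000 UMIs) in CD and to 0.989, 5.81 and 1.61 CPM in HFD. Neutrophil markers summed to 145 CPM in CD and 114 in HFD, of which Mmp9 held 130 and 107, and at least 2 of their UMIs were in 17.0% and 10.5% of cells. Stromal markers summed to 79.9 CPM in CD and 5.07 CPM in HFD, and haemoglobin genes to 855 and 939. The libraries shared 14 cell barcodes, no doublet caller was run, and only the upper limit on genes acts on doublets.

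The 32 members together were abundant in both libraries and took nearly the same share of UMIs in each. They made up 357851 UMIs in CD, or 2.91% (95% counting interval 2.90 to 2.92), and 240846 UMIs in HFD, or 2.98% (2.97 to 2.99). Every kept cell held at least 1 member UMI, and the share per cell had a median of 3.28% in CD (5th to 95th percentile 1.26 to 5.65%) and 3.54% in HFD (1.30 to 7%). Levels are given as CPM of the cells considered, and since the 3' chemistry counts molecules they can be set beside each other without scaling for length.

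A few genes made up most of this signal. Fos, the partner of JUN proteins in AP-1, was the most abundant at 4729 CPM in CD and 4390 in HFD, which was 16.2% and 14.7% of all member UMIs. Dusp1, which inactivates the p38 and JNK kinases, followed at 2839 and 3237 CPM, then Junb at 2787 and 2970 and Jund at 2288 and 2817. The 5 most abundant genes held 49.9% of the member UMIs in CD and 51.1% in HFD, the fifth being Egr1 (1882 CPM) in CD and Zfp36 (1799 CPM) in HFD. At the low end were Maff, a small MAF protein without a transactivation domain, at 29.3 and 21.1 CPM, and Dusp2 at 28.3 and 26.5. Between these ends, 11 of the 31 neighbouring pairs in the order of CD levels and 12 of 31 in HFD had overlapping counting intervals, for example Jun, Ier2, Nfkbia, Btg2 and Fosb between 1106 and 1292 CPM in CD, of which Ier2 overlapped Nfkbia and Nfkbia overlapped Btg2.

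**Figure D1:**
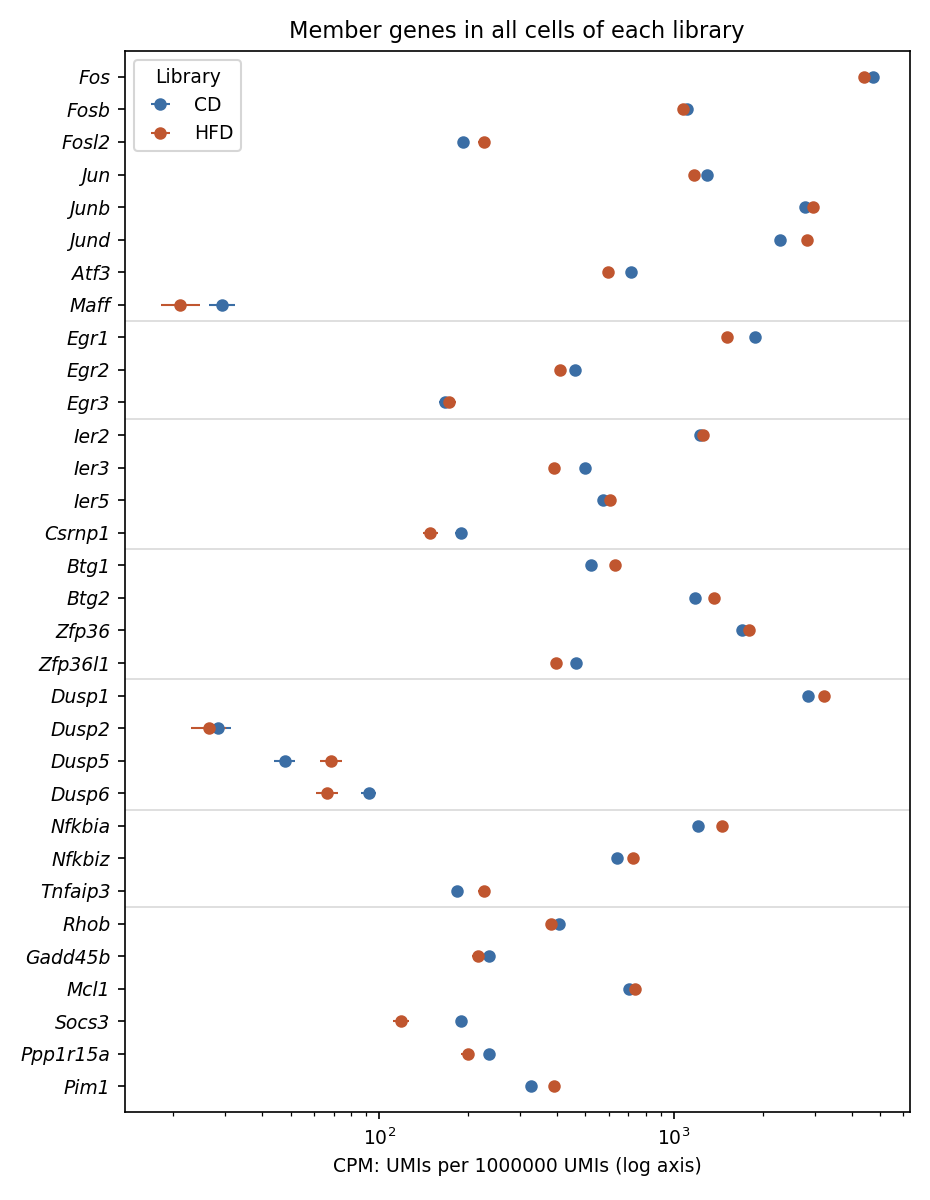
Level in CPM, which is UMIs per 1000000 UMIs (horizontal log axis), of the 32 members over all kept cells of the CD and the HFD library, ordered by role, with 95% Poisson counting intervals as bars. Fos lies highest at 4729 and 4390, Dusp2 and Maff lowest, and the points of both libraries lie close together for most genes.

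Between the diets, the members moved in both directions and by little. Over all cells 16 members were higher and 16 lower in HFD, from a log2 ratio of -0.68 for Socs3 to 0.52 for Dusp5, with a median of -0.0048 beside -0.02 over all 9929 genes with at least 50 UMIs. Counting a gene as changed in size at 1.5-fold, no member was higher in HFD, against 4.7% of all genes, and 1 was lower, against 8.94% of all genes. That member was Socs3, the inhibitor of JAK-STAT signalling downstream of IL-6 family cytokines, at 190 CPM in CD and 118 in HFD (log2 -0.68, 95% counting interval -0.79 to -0.57). It was below 1.5-fold with equal weight per cell (-0.49) and with cells thinned to 1000 UMIs (-0.44). The summed share differed by 0.03 on the log2 scale (0.02 to 0.04). The intervals of 14 members lay above 0, those of 15 below, and 3 (Egr3, Ier2 and Dusp2) held 0, yet such intervals hold no spread between mice.

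Within AP-1, the subunits differed in sign. Jund, which is expressed more constantly than the other JUN genes, was higher in HFD by a log2 ratio of 0.30 (0.27 to 0.33), Fosl2 by 0.24 (0.15 to 0.33) and Junb by 0.09 (0.07 to 0.12). Fos (-0.11), Jun (-0.15), Atf3 (-0.25), a stress-induced repressor of inflammatory genes, and Maff (-0.47) were lower, and Fosb was near equal (-0.04). Fos and Jun turned to 0.07 and 0.08 when each cell counted equally and Fosb to 0.29. Over all cells, Jund, Fosl2, Junb, Atf3 and Maff kept their signs in every alternative setting. Summed over the 8 genes the ratio was 0.01. Inside the Lyve1+ and Lyz1 classes defined below, taken without the cells in both, Fos and Jun were higher in HFD. These Lyve1+ cells were shallower in HFD, with a median of 2064 UMIs against 3800 in CD. The members' share was larger in cells with fewer genes, as given below. In Lyve1+ cells with at least 1000 genes the summed ratio was -0.019. The part of depth in the Lyve1+ ratios was not tested. Fos had ratios of 0.11 (0.07 to 0.15) and 0.06 (0.02 to 0.10), and Jun of 0.17 (0.10 to 0.24) and 0.42 (0.34 to 0.51). In Ccr2+ cells Fos and Jun were lower in HFD, at 3944 against 4142 CPM and 931 against 970. Both were higher in HFD in Folr2+Lyve1- cells, at 5127 against 4506 CPM and 1462 against 1117. Plac8+ cells also had more of both in HFD, at 4195 against 3596 CPM and 863 against 674. In the Lyve1+ and Lyz1 classes Fosl2 had ratios of 0.18 (-0.13 to 0.47) and -0.07 (-0.20 to 0.05), and both intervals held 0. Jund had 0.56 and 0.29 there, and Junb 0.06 and 0.09. Atf3 had -0.26 (-0.38 to -0.14) and -0.02 (-0.11 to 0.08), and Maff -0.33 (-1.23 to 0.47) and -0.45 (-0.87 to -0.04). In Plac8+ cells Atf3 was higher in HFD, at 607 against 542 CPM. Among the EGR factors, zinc finger proteins induced through SRF, Egr1 was lower in HFD over all cells, at 1510 against 1882 CPM (log2 -0.32, -0.35 to -0.29). Egr2 had a ratio of -0.17 over all cells, while Egr3 was near equal (0.05). Inside the same Lyve1+ and Lyz1 classes Egr1 differed less, at -0.07 (-0.13 to -0.0008) and -0.008 (-0.07 to 0.05). It was higher in HFD in Folr2+Lyve1- cells (1732 against 1632 CPM) and lower in Ccr2+ cells (1275 against 1556). The immediate early response genes also split over all cells. Ier3, a regulator of survival, had a ratio of -0.35 and Csrnp1 one of -0.34, whereas Ier2 (0.03) and Ier5 (0.08) were near equal, and Ier3 turned to 0.02 with equal weight per cell and Ier2 and Ier5 to -0.07 and -0.09 in cells with at least 1000 genes. Inside the Lyve1+ and Lyz1 classes Ier3 was near equal, at 0.04 and -0.05, while Csrnp1 stayed below 0. Ier2 had 0.21 (0.13 to 0.29) and 0.25 (0.18 to 0.31) there, and Ier5 0.38 (0.26 to 0.50) and 0.15 (0.05 to 0.25).

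The feedback genes among the members went in both directions, and Socs3, above, was the only one past 1.5-fold. All 3 NF-kB feedback genes lay above 0 over all cells. On the log2 scale Nfkbia was at 0.27 (0.23 to 0.30), Nfkbiz at 0.18 (0.13 to 0.23) and Tnfaip3 at 0.30 (0.21 to 0.39). Their summed level was 2398 CPM in HFD and 2027 in CD, and all 3 lay above 0 over all cells in every alternative setting. Inside the Lyve1+ and Lyz1 classes, taken without the cells in both, Nfkbia had ratios of 0.25 and 0.34 and Nfkbiz of 0.40 and 0.26. The lower depth of Lyve1+ cells in HFD, given above, applies to all Lyve1+ ratios of this paragraph, and its part was not tested. Tnfaip3 had 0.88 (0.61 to 1.14) and 0.006 (-0.12 to 0.13), and stood at 210 against 211 CPM in Folr2+Lyve1- cells. Nfkbiz was lower in HFD in Plac8+ cells, at 417 against 535 CPM. Of the decay genes, Btg1 (0.27), Btg2 (0.21) and Zfp36 (0.08) were higher and Zfp36l1 (-0.23) was lower, but Zfp36 turned to -0.05 in cells with at least 1000 genes and Zfp36l1 to 0.16 with equal weight per cell. The phosphatases diverged: Dusp1 had a ratio of 0.19 and Dusp5, a nuclear phosphatase of ERK, one of 0.52 (0.35 to 0.69), whereas Dusp6, the cytoplasmic phosphatase of ERK, had one of -0.47 (-0.62 to -0.32) and Dusp2 one of -0.10 (-0.35 to 0.15). Dusp5 and Dusp6 were rare, at 47.8 and 92.0 CPM in CD and 68.6 and 66.5 CPM in HFD. Inside the same Lyve1+ and Lyz1 classes Dusp1 had ratios of 0.46 and 0.15. Dusp5 had 1.10 (0.30 to 1.85) there, at 23.9 against 11.2 CPM in Lyve1+ cells, and -0.12 (-0.36 to 0.12) in Lyz1 cells. Of the remaining genes, Pim1 (0.25) and Mcl1 (0.07), both of which promote survival, were higher, and Ppp1r15a (-0.24), whose product returns translation after stress, Gadd45b (-0.12) and Rhob (-0.10) were lower. Mcl1 turned to -0.04 in cells with at least 1000 genes, and Rhob to 0.20 with equal weight per cell. Inside the same Lyve1+ and Lyz1 classes Rhob had ratios of 0.29 (0.17 to 0.41) and 0.22 (0.07 to 0.37). Zfp36l1 had 0.46 (0.35 to 0.57) and 0.14 (-0.05 to 0.34) there. Btg1 had 0.11 (-0.07 to 0.28) and 0.005 (-0.07 to 0.08), Btg2 0.23 and 0.16, and Pim1 0.27 (0.05 to 0.50) and 0.02 (-0.08 to 0.12). In Ccr2+ cells Rhob and Zfp36l1 were lower in HFD, at 269 against 288 CPM and 248 against 326. Both were higher in HFD in Folr2+Lyve1- cells, at 505 against 304 CPM and 492 against 407. Plac8+ cells had Rhob at 250 against 234 CPM and Zfp36l1 at 296 against 366.

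**Figure D2:**
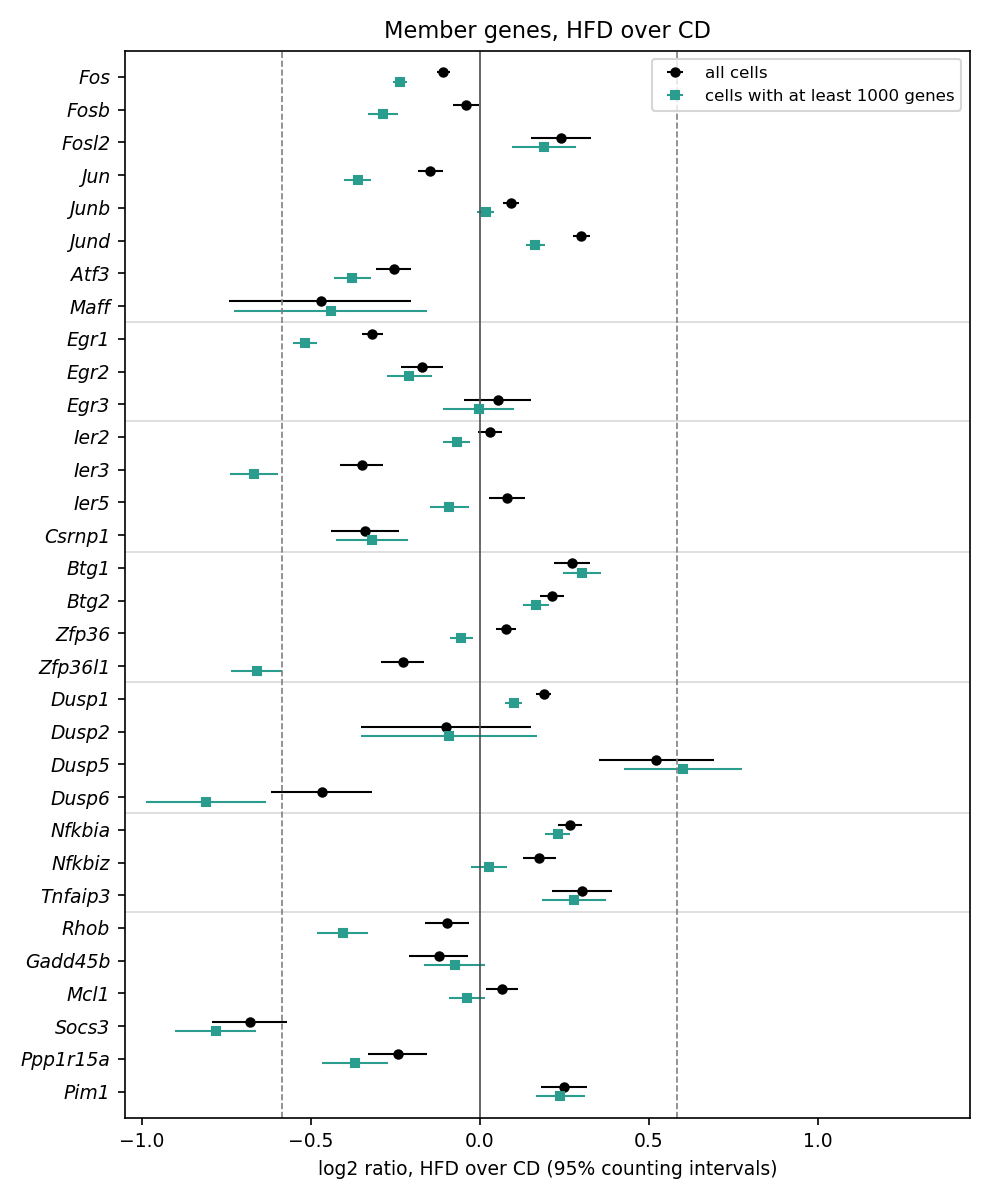
log2 ratio of HFD over CD for each member (horizontal axis) over all cells (circles) and over cells with at least 1000 genes (squares), with 95% counting intervals and dashed lines at 1.5-fold. Socs3 is the only member past 1.5-fold over all cells, and most squares lie to the left of their circles.

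Because the libraries differed in depth per cell, the members were also followed by the number of genes per cell, and here the direction between the diets turned. The members' share of UMIs was larger in cells with fewer genes in both libraries, from 4.46% at 200 to 600 genes to 2.41% at 2000 to 3500 genes in CD, and from 5.17% to 2.34% in HFD. Their log2 ratio of HFD over CD was 0.21 at 200 to 600 genes and 0.18 at 600 to 1000, but -0.03, -0.19 and -0.05 in the 3 classes above 1000 genes. Over all cells with at least 1000 genes the share was 2.69% in HFD and 2.85% in CD, a log2 ratio of -0.08 (-0.09 to -0.08). In these cells 1 member was at least 1.5-fold higher in HFD (Dusp5, 0.60) against 4.45% of all genes, and 4 were lower (Dusp6 at -0.81, Socs3 at -0.78, Ier3 at -0.67 and Zfp36l1 at -0.66) against 11.8%. The libraries also differed in cell make-up at like gene numbers. At 1500 to 2000 genes Lyz1 stood at 6021 CPM in HFD and 1817 in CD, and Lyve1 at 74.0 and 386. With at least 1000 genes, the members' log2 ratio was 0.074 in cells with at least 10 Lyz1 UMIs and -0.019 in Lyve1+ cells. The part of cell make-up in the turn was not tested.

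Cells under 1000 genes held 4.26% member UMIs in CD and 4.89% in HFD, against 2.85% and 2.69% in the other cells, a log2 ratio of 0.58 and 0.86. In CD 15 members were at least 1.5-fold higher in cells under 1000 genes, against 26.4% of all genes, and 1 was lower, against 18.3%. In HFD 19 were higher, against 32.5%, and 1 was lower, against 16.5%. The ratios furthest above 0 were those of Zfp36l1 (2.05), Dusp6 (1.76), Rhob (1.71), Ier3 (1.66) and Fosb (1.49) in HFD, and of Rhob (1.07), Zfp36l1 (1.06) and Fosb (1.04) in CD. The lower members were Dusp2 in CD (-1.92) and Dusp5 in HFD (-0.88). Cells under 1000 genes also had more mitochondrial UMIs, with medians of 7.54% in CD and 6.59% in HFD against 3.72% and 2.53% in the others. Across mitochondrial classes the members' share went from 2.39% of UMIs at 0 to 2% mitochondrial to 3.54% at 5 to 10% in CD, and from 2.52% to 4.44% in HFD. Cell make-up differed too. From 200 to 600 up to 2000 to 3500 genes, Lyve1 went from 336 to 157 CPM in CD and from 176 to 31.9 in HFD. Lyz1 went from 820 to 4888 CPM in CD and from 1627 to 7860 in HFD. The members named above as furthest above 0 were also lower in Lyz1 cells than in Lyve1+ cells, and Dusp2 and Dusp5 higher, as given below. The parts of RNA quality and of cell class in these differences were not tested.

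**Figure D3:**
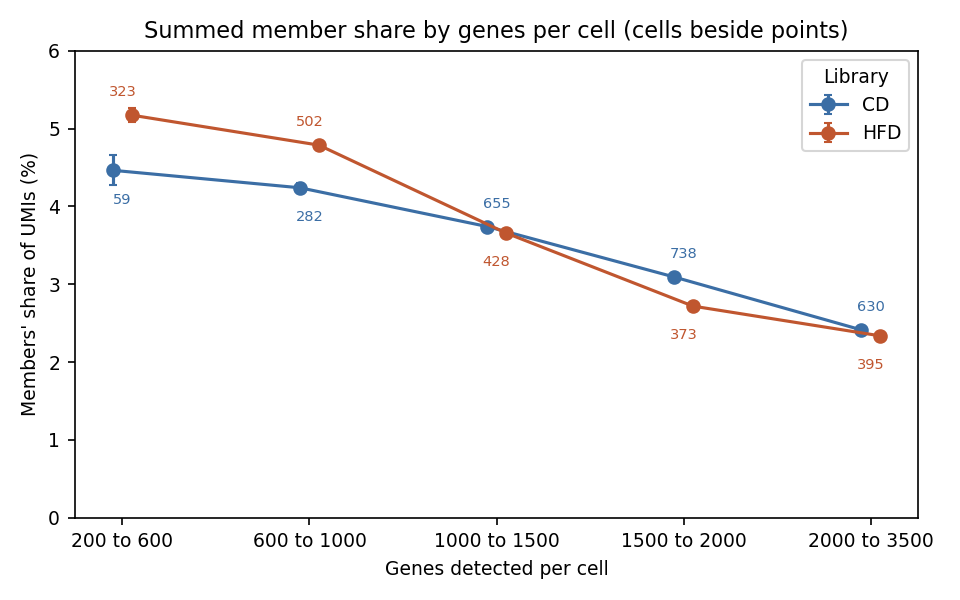
Summed share of the 32 members among all UMIs (vertical axis, from 0) in cells grouped by detected genes (horizontal axis), for CD and HFD, with 95% Poisson counting intervals as bars and the number of cells beside each point. The share falls from left to right in both libraries, and the HFD line starts above the CD line (5.17 against 4.46%) and ends beside it (2.34 against 2.41%).

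With equal numbers of UMIs drawn per cell, the upper end of the distribution differed more than its middle. With each cell thinned to 1000 UMIs, the median cell held 32 member UMIs in CD (2312 cells) and 33 in HFD (1754 cells), and 52 and 267 cells with fewer UMIs were left out. The 95th percentile was 57 in CD and 67 in HFD, and 3.72% of CD cells against 9.92% of HFD cells held more than 60. The variance of the thinned counts was 6.19 times their mean in CD and 8.66 times in HFD. Thinning evens out the counts, not the cells' own gene numbers, with which the members' share moved. Before thinning, 40.8% of HFD and 14.4% of CD cells had under 1000 genes. The part of this in the upper end was not tested.

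Members also varied together from cell to cell, but unequally. In the thinned cells the closest pairs in both libraries were Fos with Jun (Pearson r 0.39 in CD, 0.43 in HFD) and Fos with Egr1 (0.35 and 0.45), and the median over all 496 pairs was 0.05 and 0.06. Fos followed the sum of the other 31 members most closely (0.52 and 0.57), with Egr1 next (0.48 and 0.57). Btg1 (0.00 and 0.00), Pim1 (0.01 and 0.02) and Dusp5 (0.01 and -0.04) did not follow it. These are descriptions over 2312 and 1754 cells of 1 library each, which share library and depth, and low counts hold down the values of rare genes. All classes of cell were pooled here. Fos, Jun and Egr1 were lower in Lyz1 cells than in Lyve1+ cells, and Btg1, Pim1 and Dusp5 higher, as given below. The part of cell class in these values was not tested.

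Classes of ATM were set by single genes: Lyve1+ cells (at least 1 UMI of the hyaluronan receptor of resident macrophages), Folr2+Lyve1- cells (the folate receptor of resident macrophages), Ccr2+ cells (the chemokine receptor of monocytes and their recent progeny), cells with at least 10 UMIs of the lysozyme gene Lyz1, and Plac8+ cells (a gene of monocytes). Classes overlap, and a class set by 1 UMI depends on depth. The members' share was highest in Lyve1+ cells, at 3.19% of UMIs in CD (1172 cells) and 3.46% in HFD (415 cells). Folr2+Lyve1- cells followed with 2.84% (872 cells) and 3.26% (581 cells), then Ccr2+ cells with 2.67% (1326 cells) and 2.73% (1131 cells). Cells with at least 10 Lyz1 UMIs held 2.34% (555 cells) and 2.46% (672 cells), and the 42 and 73 Plac8+ cells 2.20% and 2.50%. Each class had a larger share in HFD, by 0.12 in Lyve1+, 0.20 in Folr2+Lyve1-, 0.03 in Ccr2+, 0.08 in Lyz1 and 0.19 in Plac8+ cells on the log2 scale, although in Lyve1+ cells with at least 1000 genes the ratio was -0.02. Each class was also shallower in HFD, for example Folr2+Lyve1- cells with a median of 2522 UMIs against 4995 in CD. The part of depth in these ratios was not tested. Of the CD cells 49.6% and of the HFD cells 20.5% had a Lyve1 UMI, and with HFD reweighted to the classes of CD the summed share over all cells was 3.30% in place of 2.98%.

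**Figure D4:**
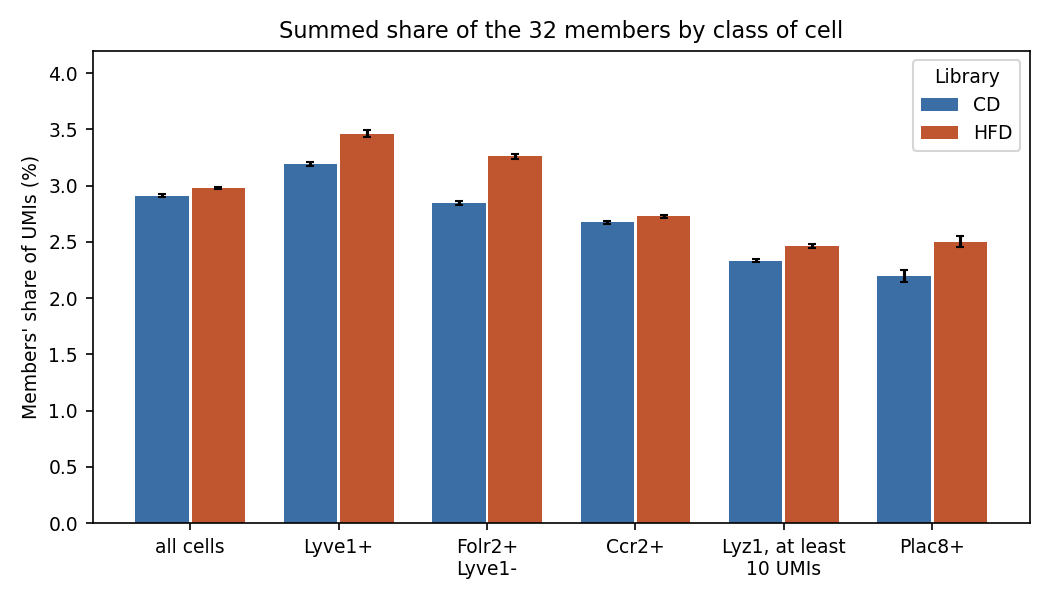
Summed share of the 32 members among all UMIs (vertical axis, from 0) by class of cell, for the CD and HFD libraries, with 95% Poisson counting intervals as bars. Lyve1+ cells have the tallest bars (3.19 and 3.46%), and the HFD bar is the taller one in every class.

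Within Lyve1+ cells 2 members were at least 1.5-fold higher in HFD, against 7.27% of all genes, and none was lower, against 8.58%. They were Dusp5, at 34.1 CPM in HFD against 19.9 in CD (log2 0.78), and Tnfaip3, at 207 against 131 CPM (log2 0.66). Within cells with at least 10 Lyz1 UMIs no member was higher in HFD, against 4.81% of all genes, and 3 were lower, against 6.05%. These were Dusp6 at 21.3 against 40.5 CPM (log2 -0.93), Dusp2, a nuclear phosphatase induced in activated leukocytes, at 22.6 against 35.3 (-0.64), and Socs3 at 87.5 against 133 (-0.60). Socs3 had a ratio below 0 in each of the 5 classes, from -0.72 in Ccr2+ cells to -0.02 in Plac8+ cells. In Plac8+ cells it was near equal, on 57 UMIs in HFD and 40 in CD. The classes overlap and are parts of the cells in which Socs3 was singled out for its size, so they are no independent check of it.

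The widest differences among the members were between the classes, not between the diets. Cells with at least 10 Lyz1 UMIs and no Lyve1 were compared with Lyve1+ cells below 10 Lyz1 UMIs inside each library, 432 with 1049 cells in CD and 618 with 361 in HFD. The summed share was lower in Lyz1 cells, at 2.28% against 3.36% in CD (log2 -0.56, -0.57 to -0.55) and 2.45% against 3.90% in HFD (-0.67, -0.69 to -0.65) while the median over all genes with at least 50 UMIs was at -0.22 and -0.19. In CD 8 members were at least 1.5-fold higher in Lyz1 cells, against 11.2% of all genes, and 13 lower, against 28.1%. In HFD 7 were higher, against 12.8%, and 16 lower, against 27.8%. All 13 members that were lower and 7 of the 8 that were higher in CD were so in HFD too, which gives 20 members past 1.5-fold in one direction in both libraries and 0 in opposite directions. Of the 6845 genes with at least 50 UMIs in both comparisons, 8.14% were higher in both libraries, 16.7% were lower in both and 0.146% went in opposite directions.

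Lower in Lyz1 cells in both libraries were Fos, Fosb, Jun, Atf3, Egr1, Ier2, Ier3, Ier5, Zfp36, Zfp36l1, Dusp6, Rhob and Socs3. Zfp36l1, an mRNA decay factor, stood at 107 CPM in Lyz1 cells and 719 in Lyve1+ cells of CD (log2 -2.74, -2.90 to -2.59) and at 119 and 989 in HFD (-3.06, -3.22 to -2.90). Ier3 stood at 161 and 779 CPM in CD (-2.27) and at 155 and 804 in HFD (-2.37). Jun, the partner of FOS, was at 512 and 1961 CPM in CD (-1.94, -2.01 to -1.87) and at 686 and 2201 in HFD (-1.68, -1.77 to -1.60). Rhob, a small GTPase of endosomes and an immediate early gene, had ratios of -1.93 and -2.00. Fos was lower by less, at 3090 against 5996 CPM in CD (-0.96) and 3223 against 6473 in HFD (-1.01), and Egr1 had ratios of -1.29 and -1.23. Jund, Dusp1 and Ppp1r15a passed 1.5-fold in HFD (-0.81, -0.61 and -0.60) and not in CD (-0.54, -0.30 and -0.44), a difference that was not tested.

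Higher in Lyz1 cells in both libraries were Fosl2, Btg1, Dusp2, Dusp5, Gadd45b, Csrnp1 and Pim1. Dusp5 was at 77.4 CPM in Lyz1 cells and 11.2 in Lyve1+ cells of CD (log2 2.79, 2.35 to 3.26) and at 71.3 and 23.9 in HFD (1.57, 0.95 to 2.27), where the Lyve1+ value rests on 22 UMIs. Dusp2 had ratios of 2.10 and 1.15, the latter on 10 UMIs in Lyve1+ cells. Fosl2, a FOS family member without a strong transactivation domain, was at 282 against 113 CPM in CD (1.33, 1.17 to 1.48) and at 268 against 127 in HFD (1.07, 0.80 to 1.36). Pim1, a kinase induced by cytokines, had ratios of 1.21 and 0.95, Btg1, an antiproliferative gene, 1.03 and 0.93, Gadd45b 0.83 and 1.21, and Csrnp1 0.72 and 0.92. Tnfaip3 was higher in CD (1.33) and below 1.5-fold in HFD (0.46). Junb (-0.15 and -0.12), Btg2 (0.15 and 0.08) and Nfkbia (-0.06 and 0.02) were near equal between the classes.

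**Figure D5:**
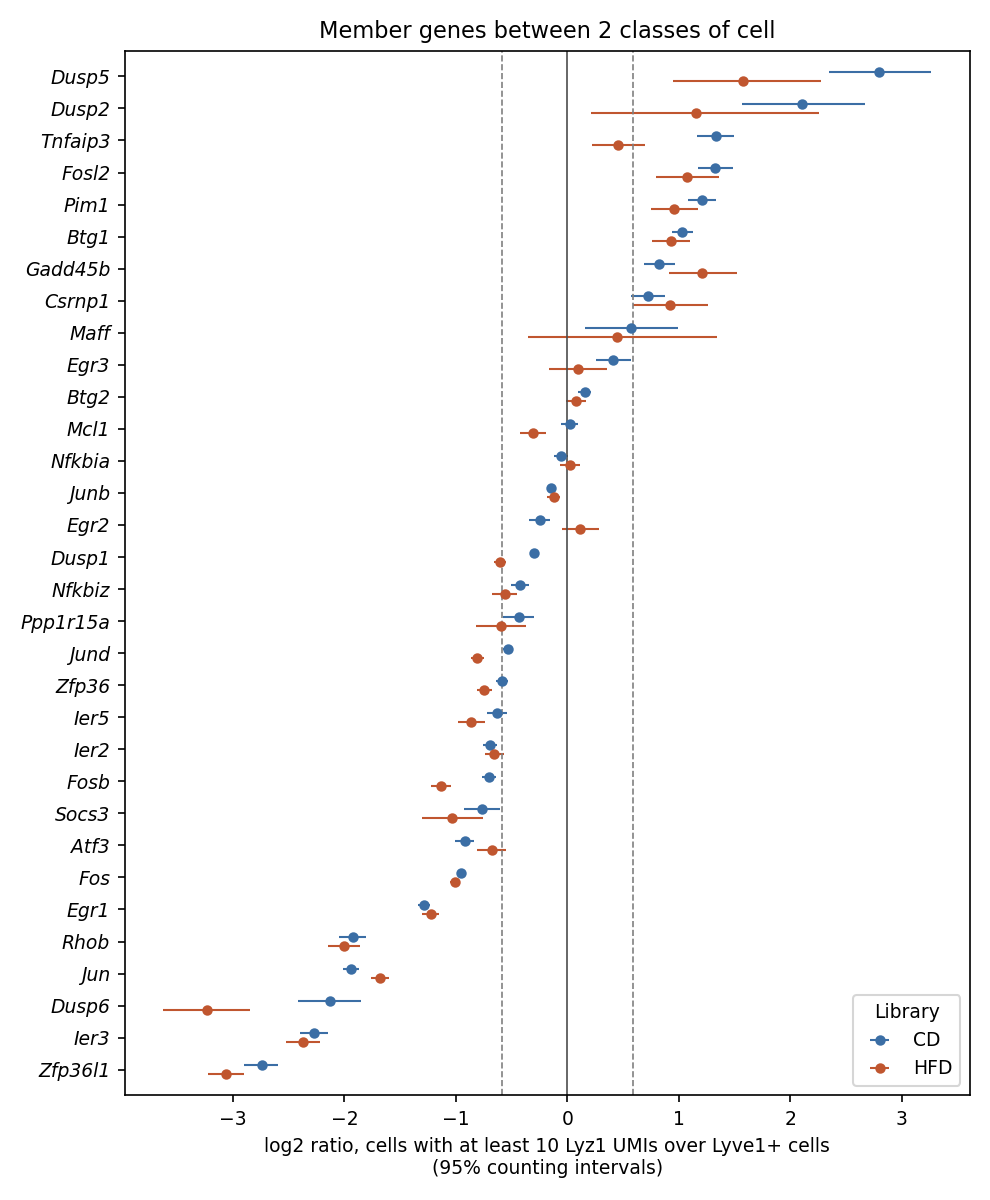
log2 ratio of cells with at least 10 Lyz1 UMIs over Lyve1+ cells (horizontal axis) for each member in CD and HFD, ordered by the CD ratio, with 95% counting intervals and dashed lines at 1.5-fold. Zfp36l1 (-2.74 and -3.06) lies at the bottom and Dusp5 (2.79 and 1.57) at the top, and 20 members lie past the same dashed line in both libraries.

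Lyz1 cells were deeper, with medians of 7924 against 3800 UMIs in CD and 6438 against 2064 in HFD, and had fewer mitochondrial UMIs (medians 2.48 against 5% and 2.10 against 4.95%). Within cells of 2000 to 8000 UMIs the summed ratio was -0.37 in CD and -0.48 in HFD, closer to 0 than over all depths, although Lyz1 cells were still deeper there (medians 5907 against 3948 and 5273 against 3015 UMIs). Past 1.5-fold in that window were 9 members higher and 9 lower in CD, against 12.6% and 25.4% of all genes, and 8 higher and 11 lower in HFD, against 15.1% and 21.6%. Each of the 20 members kept its sign, though not always its 1.5-fold, there and under the other 12 alternative settings in both libraries. Since the 20 were picked for their size in these same cells, kept signs are no independent check of them. Zfp36l1 was at -2.29 and -2.72 in that window, Jun at -1.82 and -1.53, Fosl2 at 1.74 and 1.77 and Dusp5 at 2.90 and 2.04.

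Other genes of the same pathways moved little between the diets. Of the 12 other AP-1, ATF and CREB family genes 11 had at least 50 UMIs, and none was 1.5-fold higher or lower in HFD, nor was any of the 15 upstream genes (SRF, ELK and MAP kinase genes) or the 12 other NF-kB pathway genes. Of 17 other feedback genes 12 had enough UMIs, 10 lay below 0 with a median of -0.23, none was 1.5-fold higher and 2 were 1.5-fold lower beside the 8.94% of all genes, Tob2 (-0.61) and Ier5l (-0.61), named after their values were seen. The heat shock chaperones differed more: 11 of 12 were higher in HFD, beside 47.7% of all genes, and 2 passed 1.5-fold, beside 4.7%. Their summed level was 5065 CPM against 4140 in CD (log2 0.29, 0.27 to 0.31). Hspa1b, an inducible HSP70 gene, was at 128 CPM in HFD and 45.8 in CD (log2 1.48), and its near-identical copy Hspa1a at 591 and 361 (0.71), so reads may be split between them. These chaperones are likewise known to answer handling of tissue, and their part in the members' levels was not tested. The study reported Hspa1a as raised by HFD in its resident Lyve1+ cluster of these libraries. By flow cytometry of further mice it also reported more HSP70 protein after HFD in resident ATMs marked by Tim4.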

How the data were processed

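The authors ran 10x Genomics 3' single-cell RNA-seq (V2 chemistry per the labels) on sorted ATMs, 1 library per diet from 3 pooled mice. They deposited raw counts of UMIs per gene and cell, made with Cell Ranger 3.0.2 on mm10 per the submitters' processing notes. Quality filtering, classes and ratios were computed here from those counts. Cells with 200 to 3500 genes and at most 10% mitochondrial UMIs were kept, and the study's own, library-specific gene limits were an alternative. By its methods the study also left out clusters of endothelial cells, of peritoneal macrophages and with a median under 1000 genes. That step was not repeated here. UMIs were summed over cells and divided by all UMIs of those cells (CPM). Levels have exact Poisson intervals and ratios exact conditional binomial intervals at 95%, for counting error only. A gene was counted as higher or lower at 1.5-fold with at least 50 UMIs in both groups together. Members, pathway lists and alternatives were chosen with earlier results of these data known, and all 32 members are accounted for. Cells were thinned to 1000 UMIs with a fixed seed. Promoters are RefSeq windows of GRCm38.p6, with exons from GENCODE annotation of GRCm38. The interval code was tested on simulated counts. Python 3.11.15, numpy 2.4.6, scipy 1.17.1, pandas 2.3.3 and matplotlib 3.10.9 were used.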

Additional observations from a re-analysis of the deposited data

Results flagged for a closer look

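The direction of HFD over CD was opposite in 2 classes for Fosb and Dusp6, with counting intervals on both sides of 0, and the difference between the classes was not tested since each is 1 library per diet. These intervals hold no spread between cells or mice. The Lyve1+ cells were shallower in HFD, with a median of 2064 UMIs against 3800 in CD. Both genes were among the members furthest above 0 in HFD cells under 1000 genes, as given above. The part of depth was not tested. In Lyve1+ cells below 10 Lyz1 UMIs, Fosb had a log2 ratio of 0.34 (0.26 to 0.42), at 1713 against 1351 CPM. In cells with at least 10 Lyz1 UMIs and no Lyve1 it had one of -0.09 (-0.16 to -0.01), at 781 against 829 CPM. For Dusp6 the ratios were 0.35 (0.10 to 0.60), at 188 against 148 CPM, and -0.75 (-1.17 to -0.34), at 20.1 against 33.7 CPM.

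Barcodes with 10 to 20% mitochondrial UMIs, which entered no comparison except the alternative limit of 20%, held a larger member share than the kept cells. The share was 4.07% in CD (923 barcodes) and 4.53% in HFD (797 barcodes), and 3.21% and 3.54% at 20 to 50% mitochondrial UMIs.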

How the results depend on the processing

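No paired analysis was possible because each diet has 1 library, so no replicate could be left out either. Log2 ratios of the summed share are given for HFD over CD in all, Lyve1+ and Lyz1 cells, then for Lyz1 over Lyve1+ cells in CD and HFD, where they moved beyond their counting interval, and the causes were not tested. A 5% mitochondrial limit gave 0.002, 0.050, 0.093, -0.546 and -0.569, and a 20% limit -0.593 and -0.689 for the class ratios. With 1000 to 3500 genes per cell, 2 values turned below 0 (-0.085 in all, -0.019 in Lyve1+ cells), and the class ratios were -0.539 and -0.505. Equal weight per cell gave 0.203, 0.271, 0.091 and, for the HFD classes, -0.748, and thinning 0.122, 0.251, 0.091 and -0.732. Scaling by the median ratio over genes with at least 100 UMIs, whose median between the classes was -0.17 in CD and -0.12 in HFD, gave 0.043 in all and 0.097 in Lyz1 cells, and -0.391 and -0.550 between classes. Totals without mitochondrial and ribosomal protein genes gave 0.100 in Lyve1+ cells, and -0.491 and -0.582. Leaving out cells with at least 2 UMIs of other cell types' markers gave 0.062, 0.145, 0.135, -0.619 and -0.726, and the same without Mmp9, Csf3r and Cd79b (chosen after seeing the data) -0.586 and -0.690. Leaving out the barcodes that both libraries hold, also chosen after seeing the data, moved none of these values beyond its counting interval. Without Fos the values were 0.057, 0.138, -0.487 and -0.611, the Lyz1 ratio excepted. Exclusive classes gave 0.225 in Lyve1+ cells and -0.523 in CD, the window of 2000 to 8000 UMIs -0.374 and -0.476, reweighting 0.178, and the study's cell limits 0.048, both in all cells.

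The count of members higher in HFD was 1 in place of 0 with the 20% limit, with 1000 to 3500 genes and with thinning. The count of lower members was 4 in place of 1 with 1000 to 3500 genes, 2 without cells with other markers, and 0 with equal weight per cell, with thinning and at 2-fold. Of the 32 members, 12 changed the sign of HFD over CD in at least 1 setting, Fos, Fosb, Jun, Egr3, Ier2, Ier3, Ier5, Zfp36, Zfp36l1, Dusp2, Rhob and Mcl1, and Socs3 was below 0 in each. Depth limits Dusp2, Dusp5, Dusp6 and Maff most, and with 1 library per diet no difference between diets has a replicate check.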

Other observations

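In Lyz1 cells the summed level of the heat shock genes was 3797 CPM against 4361 in Lyve1+ cells of CD (log2 -0.20) and 4513 against 6412 in HFD (-0.51). Of the 11 chaperones with at least 50 UMIs, 6 in CD and 9 in HFD were below 0, with medians of -0.03 and -0.33 beside -0.22 and -0.19 over all genes. The sum of the 17 other feedback genes was 967 against 1444 CPM in CD (-0.58) and 1015 against 1883 in HFD (-0.89). In CD 7 of the 11 of them with enough UMIs were below 0 and 4 above, and in HFD 7 of 8 were below. Of all genes with at least 50 UMIs, 36.5% in CD and 38.1% in HFD lay above 0, so the CD count was near that of all genes. The sums of the upstream SRF, ELK and MAP kinase genes differed by -0.11 and -0.12.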
